A study of Homo sapiens with 4 samples.

Results

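SEMA3A, HIP1, ALDH1L2, HIPK1, NPAT, CALD1, SP1, SH3PXD2A, FBN1 and CPEB2 are 10 genes whose transcripts had different estimated shares with and without azacytidine. They were chosen because a transcript, or a first exon absent from the annotation, changed its share of the transcript reads of the gene by at least 10 percentage points in the same direction in both azacytidine comparisons. The gene table held 77973 genes, of which 8145 had a mean of at least 20 reads, and 1252 genes had at least 1 transcript that moved by 10 points in this way. Since the azacytidine shares chose the genes, their differences with azacytidine are given as a description, with no test. All 10 genes passed the minimum of 20 reads in the mean of the libraries.

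The libraries were long-read PacBio complementary DNA (Iso-Seq) from cortical neurons induced from the established human pluripotent stem cell line KOLF2.1J. All 4 groups carried the doxycycline-inducible neuronal factor NGN2 and a constitutive dCas9-BFP-KRAB construct for CRISPR interference, and had been selected with puromycin as stable pools of lentivirally transduced cells. The control had a non-targeting guide RNA and no drug, the knockdown had a guide against TDP-43, the azacytidine group had the non-targeting guide and 5 µM 5-azacytidine for 72 hours, and the combined group had both. Each group was 1 library, harvested on 1 of a pair of days that the labels do not assign, so no value below has a replicate check and a test on reads compares libraries, not conditions. The azacytidine comparisons were azacytidine against control and combined against knockdown, and the knockdown comparisons were knockdown against control and combined against azacytidine.

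Many human genes have more than one promoter. A transcript that starts at another promoter gains a different first exon, which can change the leader of the mRNA or the N terminus of the protein, and a switch of the poly(A) site changes its 3′ end. Methylation of CpG dinucleotides at a promoter is a mark of silent chromatin. Azacytidine is a cytidine analogue that, once in DNA, traps DNA methyltransferases. TDP-43 is an RNA-binding protein that controls splicing and poly(A) site use in neurons.

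The libraries held 595158 (control), 767621 (knockdown), 466337 (azacytidine) and 477622 (combined) reads assigned to genes. TARDBP, the gene of TDP-43, had 104, 72, 73 and 43 reads in these libraries, a log2 ratio of -0.67 with the knockdown alone (adjusted p = 0.017, exact binomial test) and of -0.73 beside azacytidine (adjusted p = 0.0573, exact binomial test). All 11 neuronal markers had reads in every library, and their summed level was between 2236 and 3270 CPM, counts scaled to the effective size of each library. Markers of neural progenitors summed to 744 and 677 CPM without azacytidine and to 168 and 130 with it, and those of dividing cells to 676 and 651 against 50.6 and 43.3. Pluripotency markers summed to 394, 487, 314 and 355 CPM (control, knockdown, azacytidine, combined), astrocyte markers to 48.4, 48.2, 2.02 and 0, oligodendrocyte-lineage markers to 108, 74.4, 70.8 and 51.6, and microglial markers to 0, 7.3, 0 and 2.06. Their part in the results below was not tested. In bulk RNA, fewer cells of a type and less RNA per cell cannot be told apart. Full-length reads made up 28.2% of the transcript reads in the control, 23.3% in the knockdown, 35.7% in the azacytidine and 31.2% in the combined library, and the part of this difference was not tested either.

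Each gene was read in 3 tables. The estimated table splits a read between all transcripts it could come from. The unique table keeps reads that fit 1 transcript alone, and the full-length table keeps reads that span a transcript. Shares below come from the estimated table unless another is named, and values are given in the order control, knockdown, azacytidine, combined. Intervals are 95% Wilson intervals and cover counting error only. A transcript with 0 reads could have had a share of up to 3 reads of its gene. Intervals and this limit take estimated reads as observed ones, so they do not cover the division of reads between transcripts.

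**Figure D1:**
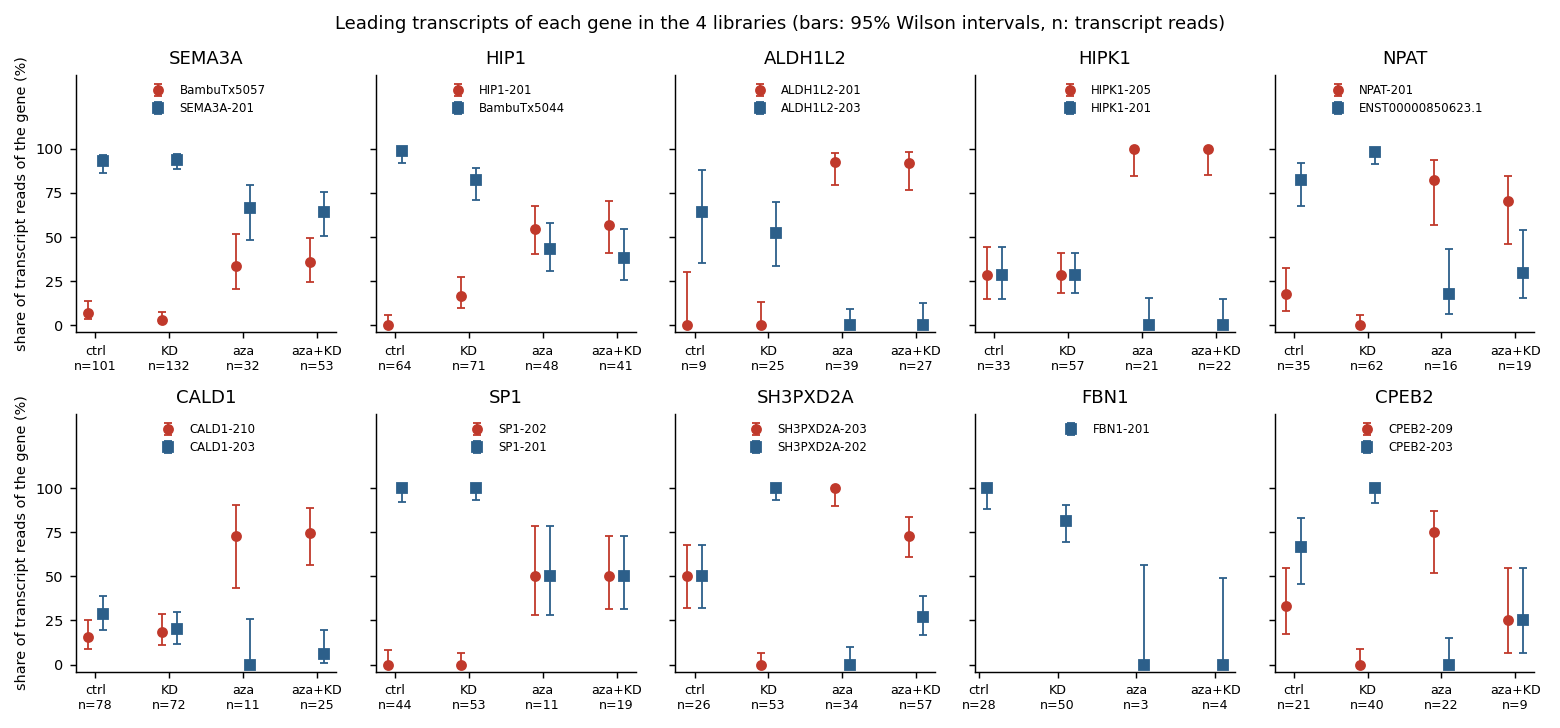
Share of the transcript reads of each gene (%, vertical axis) held by its leading transcripts in the control (ctrl), knockdown (KD), azacytidine (aza) and combined (aza+KD) libraries. Red circles mark the transcript with a larger share in both azacytidine pairs, blue squares the one with a smaller share, bars are 95% Wilson intervals, and n is the number of transcript reads; the FBN1 values with azacytidine rest on 3 and 4 reads.

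In SEMA3A (ENSG00000075213.11, chromosome 7, 83955777 to 84492724, minus strand, hg38), azacytidine libraries held more transcripts from an unannotated downstream first exon and fewer from the annotated one. SEMA3A encodes semaphorin 3A, a secreted guidance cue that repels growing axons through neuropilin and plexin receptors. The unannotated transcript, named BambuTx5057 in the deposited annotation, starts with an exon at chr7:84150200-84150617, 44172 bases downstream of the start of the annotated transcript SEMA3A-201. The transcripts share 15 introns, and the unannotated one also ends 3477 bases earlier, inside the last exon of SEMA3A-201. The annotated first exon holds 112 coding bases with the start codon of the 771-residue protein, and the unannotated transcript lacks them. That coding stretch, at chr7:84194475-84194586 on the minus strand in GENCODE 29, is shown because it is what the switch removes, with the start codon in capitals:
SEMA3A-201 exon 1, coding part: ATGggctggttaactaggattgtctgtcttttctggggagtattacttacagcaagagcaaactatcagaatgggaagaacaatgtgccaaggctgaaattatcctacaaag

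BambuTx5057 had 7.1, 3.6, 10.7 and 19.1 estimated reads, and SEMA3A-201 had 93.9, 123.7, 21.3 and 33.9. The share of BambuTx5057 was 7.04% (interval 3.4 to 13.6), 2.76% (1.18 to 7.53), 33.3% (20.4 to 51.7) and 36% (24.3 to 49.3). The azacytidine libraries were both higher than the others. Scaled to library size, the annotated transcript was at 151 and 181 CPM without the drug and at 43.1 and 69.9 with it, whereas the unannotated one was at 11.5 and 5.25 against 21.7 and 39.4. The level of the annotated transcript was thus lower and that of the unannotated one higher. Unique reads of BambuTx5057 numbered 6, 3, 10 and 16, and those of SEMA3A-201 35, 62, 16 and 23. In the full-length table BambuTx5057 went from 9.76% and 7.59% to 69.2% and 72.2%. All 3 tables, which hold parts of the same reads, therefore showed the same direction. The spliced length is 4739 bases for BambuTx5057 and 8113 for SEMA3A-201, and the part of this difference in the full-length shares was not tested. Gene reads of SEMA3A were 136, 172, 44 and 57, a log2 ratio of -1.29 and -1.09 with azacytidine.

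HIP1 (ENSG00000127946.17, chromosome 7, 75533298 to 75738962, minus strand) showed the opposite direction, with less use of a downstream first exon and more of the annotated upstream one. HIP1 encodes an adaptor that binds huntingtin, clathrin and actin during endocytosis. BambuTx5044 starts with an unannotated exon at chr7:75639051-75639440, and HIP1-201, which encodes 1037 residues, starts 99501 bases upstream with an exon at chr7:75738801-75738941 that holds 120 coding bases. The transcripts share 29 introns, and their 3′ ends lie 2 bases apart, so the pair differs at the 5′ end. The deposited annotation has no other transcript that starts at the downstream exon, but RefSeq lists a HIP1 start inside this exon, 198 bases from its 5′ end.

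BambuTx5044 held 98.4% (interval 91.7 to 99.7), 82.2% (71.2 to 89), 43.2% (30.7 to 57.7) and 37.9% (25.7 to 54.3) of the HIP1 transcript reads. HIP1-201 held 0%, 16.4%, 54.6% and 56.9%, from 0, 11.7, 26.2 and 23.3 estimated reads. A count of 0 among 64 reads allows a share of up to 4.69% in the control. Both azacytidine libraries were below both others in the share of the downstream start. Few of these reads fit 1 transcript alone: unique reads numbered 1, 5, 1 and 2 for BambuTx5044 and 0, 1, 2 and 3 for HIP1-201. HIP1-201 was the larger of these counts only in the azacytidine libraries. All transcripts of the upstream start together had 1, 2, 3 and 5 unique reads, which equals the downstream count in the control. Gene reads of 69, 88, 65 and 54 gave log2 ratios of 0.24 and -0.20 with azacytidine, so the share moved while the level of the gene differed little and in opposite directions.

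The RefSeq windows around the starts of HIP1, 250 bases before to 50 after, are shown to compare the sequence of the promoter that lost share with that of the one that gained it (GRCh38.p14, minus strand, 5′ to 3′; chr7:75639193-75639492 for the downstream and chr7:75738892-75739191 for the upstream start). Capitals mark GGGCGG or its reverse complement CCGCCC, the GC box bound by SP-family factors, with overlapping matches counted on both strands:
HIP1 downstream start, smaller share: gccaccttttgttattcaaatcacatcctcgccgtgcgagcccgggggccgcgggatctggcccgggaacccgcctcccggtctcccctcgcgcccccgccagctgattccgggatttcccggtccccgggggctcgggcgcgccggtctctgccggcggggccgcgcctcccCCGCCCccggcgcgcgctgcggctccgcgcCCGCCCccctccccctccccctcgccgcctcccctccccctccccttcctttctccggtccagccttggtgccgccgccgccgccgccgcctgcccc
HIP1 upstream start, larger share: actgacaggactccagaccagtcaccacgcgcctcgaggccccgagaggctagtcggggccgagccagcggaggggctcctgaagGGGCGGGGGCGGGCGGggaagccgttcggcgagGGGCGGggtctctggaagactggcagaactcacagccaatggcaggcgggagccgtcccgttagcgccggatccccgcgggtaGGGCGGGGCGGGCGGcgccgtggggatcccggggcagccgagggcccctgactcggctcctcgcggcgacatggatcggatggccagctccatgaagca
The downstream window had 41 CpG dinucleotides and a ratio of observed to expected CpG of 0.974, and the upstream one had 33 and 0.845. GC boxes numbered 2 downstream and 7 upstream. At least 1 GC box occurred in 45.0% of the 35116 RefSeq windows used here, and 7 or more in 1.5%.

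ALDH1L2 (ENSG00000136010.14, chromosome 12, 105019784 to 105107643, minus strand) had estimated reads of its complete transcript in the azacytidine libraries and none in the others. It encodes the mitochondrial 10-formyltetrahydrofolate dehydrogenase, an enzyme of folate one-carbon metabolism. The 23-exon ALDH1L2-201, which encodes 923 residues, held 0%, 0%, 92.3% and 92.2% of the transcript reads. In 9 control reads and 25 knockdown reads a count of 0 allows shares of up to 33.3% and 12.0%. Without azacytidine, reads went to ALDH1L2-203 (64.3% and 52.0%, then 0% and 0%), which is annotated as a retained-intron transcript and starts within exon 5 of ALDH1L2-201, 17853 bases downstream. The other reads went to ENST00000550088.1 (33.3%, 48.0%, 7.69% and 3.70%), a 2-exon transcript at chr12:105102472-105107179, upstream of both. Unique reads of ALDH1L2-201 were 0, 0, 2 and 1, those of ALDH1L2-203 were 1, 4, 0 and 0, and those of ENST00000550088.1 were 3, 12, 3 and 1. With azacytidine ALDH1L2-201 had 36 and 24.9 estimated reads, so its shares rest largely on divided reads. Transcript reads of the gene were 9, 25, 39 and 27, and its gene level had log2 ratios of 1.28 and 0.72 with azacytidine, higher in both pairs.

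HIPK1 (ENSG00000163349.22, chromosome 1, 113929324 to 113977869, plus strand) had its estimated reads at several starts without azacytidine and at 1 of them with it. It encodes a nuclear serine/threonine kinase that phosphorylates homeodomain transcription factors. HIPK1-205, which starts at position 113929710 and encodes 1210 residues, held 28.5%, 28.7%, 100% and 100% of the transcript reads. HIPK1-201, which starts 21435 bases downstream, lacks the 1078-base exon 2 and encodes 836 residues, held 28.5%, 28.7%, 0% and 0%. The share of HIPK1-208, from a start at 113929324 to 113929374, was 10.2%, 42.5%, 0% and 0%. HIPK1-202, from a start at 113963440, held 28.5% in the control and 0% in the other libraries. Only 3 of the HIPK1 reads fit 1 transcript alone, 1 in each library but the control, and the unique read in both azacytidine libraries was of HIPK1-205. The equal shares of HIPK1-205 and HIPK1-201 without azacytidine, and of HIPK1-202 in the control, thus rest on divided reads. So do the shares of 100% with azacytidine, from 21 and 22 estimated reads of which 1 in each library was unique. These windows of HIPK1 (GRCh38.p14, plus strand; chr1:113929594-113929893 and chr1:113950895-113951194) are shown because they differ most in CpG content, with GC boxes in capitals:
HIPK1 upstream start, larger share: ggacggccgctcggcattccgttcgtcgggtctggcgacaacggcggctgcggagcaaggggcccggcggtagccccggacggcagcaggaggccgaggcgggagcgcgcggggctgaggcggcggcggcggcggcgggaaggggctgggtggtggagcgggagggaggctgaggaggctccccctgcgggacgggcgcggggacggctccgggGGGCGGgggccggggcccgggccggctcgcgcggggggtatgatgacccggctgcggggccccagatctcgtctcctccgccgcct
HIPK1 downstream start, smaller share: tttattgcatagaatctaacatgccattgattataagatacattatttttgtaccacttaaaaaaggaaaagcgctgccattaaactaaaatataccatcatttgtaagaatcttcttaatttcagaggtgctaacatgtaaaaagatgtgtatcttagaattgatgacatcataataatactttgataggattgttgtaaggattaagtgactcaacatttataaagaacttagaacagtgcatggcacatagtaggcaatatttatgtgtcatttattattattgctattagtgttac
The upstream window, 134 bases from the start in the files, had 44 CpG dinucleotides and an observed to expected ratio of 0.967, above 88.4% of all windows. The downstream window had 1 CpG, a ratio of 0.168 and a GC content of 28.3%. It held 2 matches to TATAAA, 1 on each strand, which overlap at 1 site. At least 1 match occurred in 11.5% of all windows. The window at 113929324, which also lost share, had a ratio of 0.533.

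**Figure D2:**
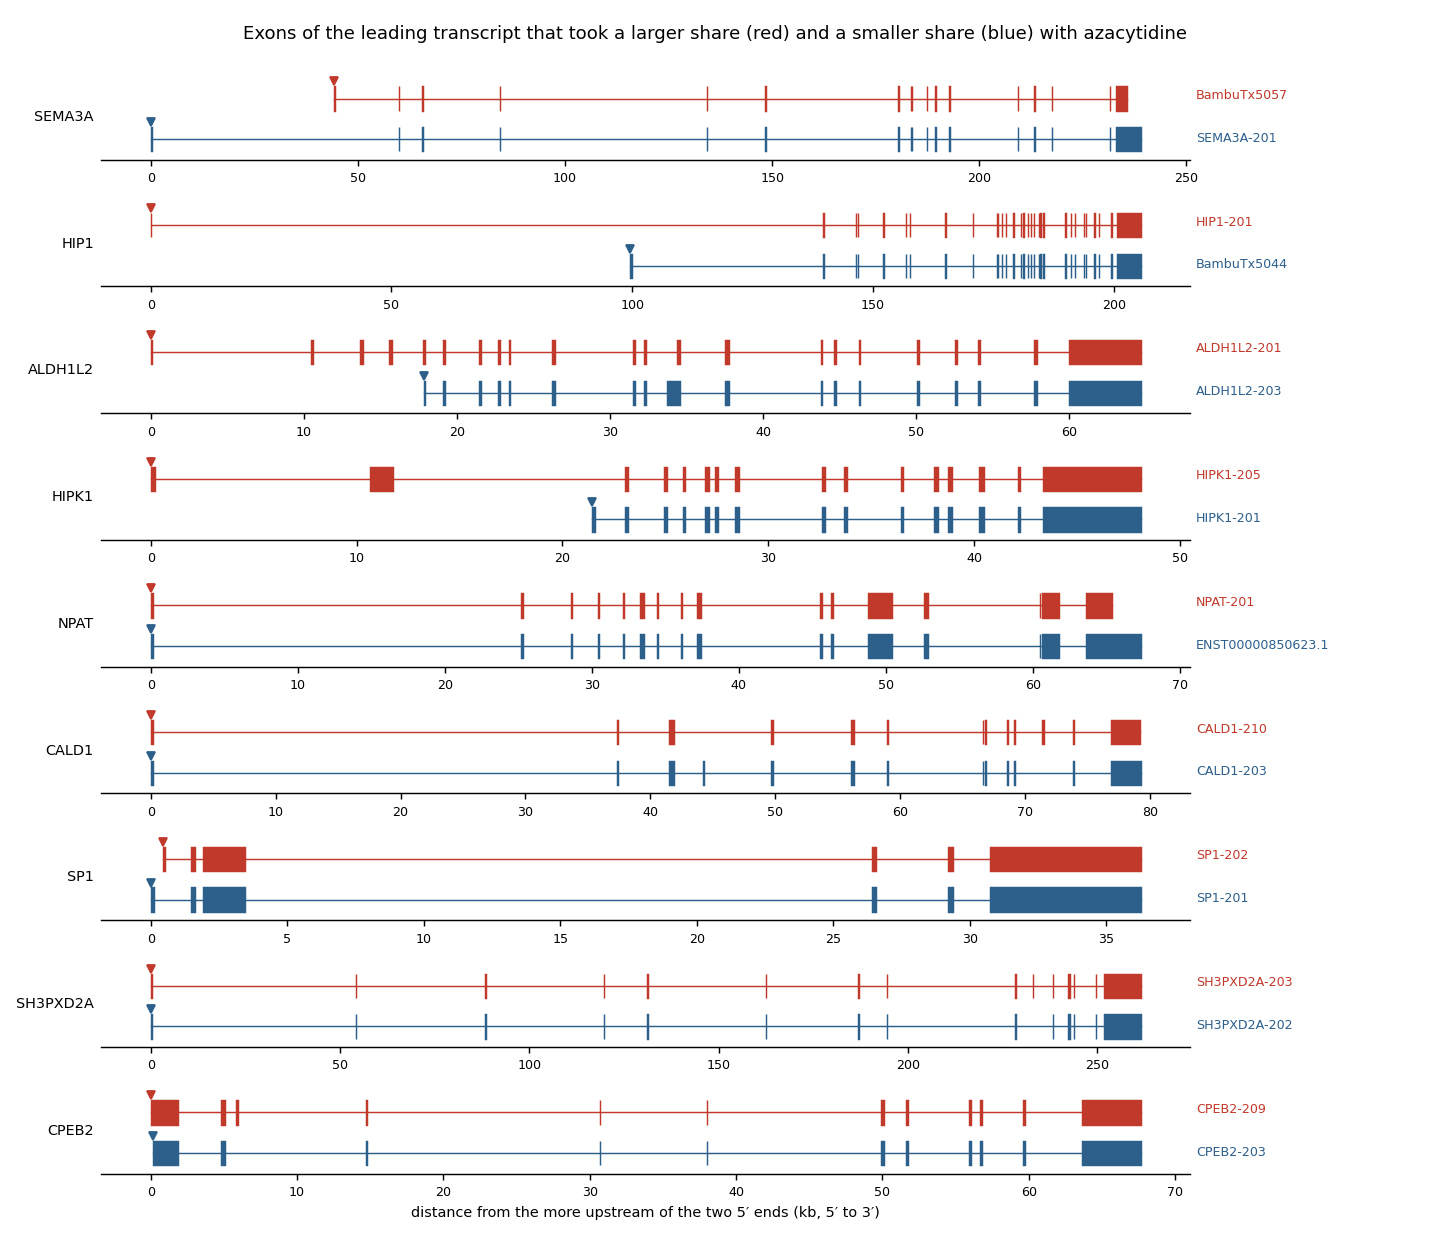
Exons (boxes) and introns (lines) of the leading transcript with the larger share in azacytidine libraries (red) and the one with the smaller share (blue) in 9 genes, by distance in kb from the more upstream of the pair of 5′ ends (triangles). SEMA3A, HIP1, ALDH1L2 and HIPK1 differ by starts 17853 to 99501 bases apart, SP1 and CPEB2 by starts 463 and 193 bases apart, NPAT by the 3′ end and SH3PXD2A by 1 internal exon; FBN1 has no transcript with a larger share in both pairs.

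SP1 (ENSG00000185591.10, chromosome 12, 53380176 to 53416446, plus strand) had starts close together. It encodes the founding member of the zinc-finger factors that bind GC boxes. SP1-201, with 785 residues, held 100%, 100%, 50% and 50% of the reads, and SP1-202, which starts 463 bases downstream and encodes 778 residues, held 0%, 0%, 50% and 50%. Transcript reads were 44 and 53 without azacytidine, of which 1 in each library was unique, to SP1-201. They were 11 and 19 with azacytidine, and none of them was unique. The equal division with the drug is that of reads which fit both transcripts. Gene reads were 46, 53, 11 and 19, a log2 ratio of -1.69 and -0.96. The windows of these starts (GRCh38.p14, plus strand; chr12:53379926-53380225 and chr12:53380394-53380693), again with GC boxes in capitals, are shown because this gene encodes the GC-box factor itself:
SP1 upstream start, smaller share: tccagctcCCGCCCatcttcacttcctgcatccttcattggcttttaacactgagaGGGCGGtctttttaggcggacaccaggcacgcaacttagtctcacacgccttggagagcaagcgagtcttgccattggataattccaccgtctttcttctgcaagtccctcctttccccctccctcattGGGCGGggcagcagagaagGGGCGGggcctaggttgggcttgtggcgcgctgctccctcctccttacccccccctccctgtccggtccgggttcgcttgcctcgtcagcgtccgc
SP1 downstream start, larger share: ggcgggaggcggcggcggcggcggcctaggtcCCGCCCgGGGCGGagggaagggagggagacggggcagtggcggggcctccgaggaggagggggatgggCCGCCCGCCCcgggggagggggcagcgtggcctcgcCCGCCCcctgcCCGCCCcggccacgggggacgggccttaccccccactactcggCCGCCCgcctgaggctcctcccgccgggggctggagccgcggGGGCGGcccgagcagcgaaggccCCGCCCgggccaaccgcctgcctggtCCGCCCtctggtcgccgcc
GC boxes numbered 4 in the upstream and 10 in the downstream window, and 10 or more occurred in 0.214% of all windows. The CpG ratio was 0.636 and 0.733.

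CPEB2 (ENSG00000137449.17, chromosome 4, 15002481 to 15070153, plus strand) differed in its start and in an internal exon. It encodes a protein that binds cytoplasmic polyadenylation elements and controls translation. CPEB2-209, from the start at 15002481 with 1034 residues, held 33.3%, 0%, 75% and 25% of the reads. CPEB2-203, which starts 193 bases downstream, held 66.7%, 100%, 0% and 25%. Its GENCODE 29 record, whose exons differ from the deposited ones, encodes 567 residues, whereas CPEB2-205 from the same start encodes 1007. Exon 1 of CPEB2-203 has 1662 bases, and exon 1 of CPEB2-209 has 1662 coding bases. The downstream start thus lies where the coding sequence of CPEB2-209 begins, and was not shown to be another promoter. From this downstream start, CPEB2-205 held 0%, 0%, 25% and 25%, and CPEB2-204 held 25% in the combined library alone. The combined library thus divided its 9 reads, none of them unique, evenly between these transcripts. CPEB2-209 has a 90-base exon 3 that CPEB2-203 lacks, at chr4:15008338-15008427, and it is shown as the internal difference:
CPEB2-209 exon 3: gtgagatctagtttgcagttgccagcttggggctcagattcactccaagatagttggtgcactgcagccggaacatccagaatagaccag
Transcript reads were 21, 40, 22 and 9, and unique reads of CPEB2-209 were 1, 0, 3 and 0. The share of CPEB2-209 in the combined library was below that of the control, so the libraries overlap and the direction holds only within each pair. Gene reads of 21, 40, 38 and 9 gave log2 ratios of 1.17 and -1.59 with azacytidine.

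CALD1 (ENSG00000122786.20, chromosome 7, 134744252 to 134970729, plus strand) had the most transcripts with reads of the 10 genes, 8. It encodes caldesmon, which binds actin and tropomyosin, with a long form typical of smooth muscle and shorter ones elsewhere. Transcript reads of the gene were 78, 72, 11 and 25, fewer than its gene reads in every library. CALD1-210 held 15.8% (interval 9.03 to 25), 18.7% (10.9 to 28.5), 72.9% (43.4 to 90.3) and 74.5% (56.6 to 88.5) of these transcript reads. Both azacytidine libraries were above both others. Scaled to library size, CALD1-210 was at 19.8, 19.7, 16.2 and 38.4 CPM, while CALD1-203 was at 36.1, 21.0, 0 and 2.89. The larger share of CALD1-210 therefore went with a lower level of the other transcripts rather than with a higher level of CALD1-210 in both pairs. CALD1-201, the 793-residue form, held 10.5%, 20%, 0% and 0%, CALD1-202 held 21.4%, 23.4%, 15.2% and 10.9%, and CALD1-206 held 20.5%, 15.0%, 11.9% and 4.77%. Unique reads of CALD1-210 numbered 8, 9, 4 and 12, among 31, 23, 6 and 16 unique reads of the gene. CALD1-210 is annotated in GENCODE 29 as a target of nonsense-mediated decay, the pathway that degrades mRNAs with an early stop codon, and it carries a 115-base exon 11 (chr7:134962820-134962934) that CALD1-203 lacks. CALD1-203 carries a 78-base exon 4 (chr7:134935688-134935765) that CALD1-210 lacks. Both are shown as the difference between these forms:
CALD1-210 exon 11: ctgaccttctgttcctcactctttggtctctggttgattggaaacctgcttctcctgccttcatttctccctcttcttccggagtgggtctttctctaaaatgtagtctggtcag
CALD1-203 exon 4: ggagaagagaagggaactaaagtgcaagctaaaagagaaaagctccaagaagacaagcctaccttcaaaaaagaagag
The start at 134891458, which both use, held 44.6%, 38.7%, 72.9% and 80.3% of the reads, and the starts at 134779625 to 134779715 held 33.4%, 44.9%, 15.2% and 14.9%. CALD1 gene reads were 117, 122, 43 and 29, a log2 ratio of -1.11 and -1.55. Summed smooth muscle markers were at 71.0, 52.5, 18.2 and 24.8 CPM, with no read of MYH11 in the azacytidine and of TAGLN in the combined library, and their part in the result was not tested.

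SH3PXD2A (ENSG00000107957.17, chromosome 10, 103594027 to 103855584, minus strand) differed by 1 internal exon. It encodes the scaffold TKS5 of podosomes and invadopodia. SH3PXD2A-203, with 1133 residues, contains an 84-base exon 10 that keeps the reading frame, and SH3PXD2A-202, with 1105 residues, skips it. Their starts lie 8 bases apart and their ends coincide. The exon, at chr10:103622470-103622553 on the minus strand, is the one member difference that also passed the knockdown rule below and is shown for that reason:
SH3PXD2A-203 exon 10: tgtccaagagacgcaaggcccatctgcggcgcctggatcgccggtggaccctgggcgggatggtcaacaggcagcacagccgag
SH3PXD2A-203 held 50%, 0%, 100% and 72.8% of the reads, and SH3PXD2A-202 the rest. Transcript reads were 26, 53, 34 and 57. Over all libraries 0.588% of them were unique to a transcript, 1 read of SH3PXD2A-203 in the azacytidine library, and none was full-length, so these shares are divisions of reads that fit both forms. Gene reads were 28, 83, 40 and 70.

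NPAT (ENSG00000149308.18, chromosome 11, 108155280 to 108222638, minus strand) differed in its 3′ end alone. It encodes a coactivator of replication-dependent histone genes. NPAT-201 (1427 residues) and ENST00000850623.1 have the same start and the same 17 introns, and the latter runs 1935 bases further, to 108155280. NPAT-201 held 17.9% (interval 8.1 to 32.7), 0% (0 to 5.83), 82.5% (57 to 93.4) and 70.2% (46 to 84.6) of the reads. The long form held 82.1%, 98.3%, 17.6% and 29.8%. Of the pair only the long form had unique reads, 10, 17, 1 and 2, and every base of NPAT-201 lies within it. In the full-length table NPAT-201 had 1, 0, 2.6 and 2.4 reads and the long form 3, 6, 0.4 and 0.6. In the estimated and full-length tables the short end held the larger share in both azacytidine libraries and in neither of the others. Since no read was unique to NPAT-201, its shares rest on divided reads, and the unique reads showed no switch. NPAT gene reads were 41, 75, 16 and 28, a log2 ratio of -1.0 and -0.91.

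FBN1 (ENSG00000166147.16, chromosome 15, 48408313 to 48645721, minus strand) had no read of its main transcript in either azacytidine library. It encodes fibrillin-1, the chief component of extracellular microfibrils. FBN1-201, with 2871 residues, held 100%, 81.3%, 0% and 0% of the reads, and it had 16, 28, 0 and 0 unique reads. Only 3 and 4 transcript reads remained with azacytidine, so 0 reads of FBN1-201 allow shares of up to 100% and 75%, and the shares could not show a switch at this depth. These reads went to ENST00000682170.1 (62.5%) and ENST00000682767.1 (37.5%) in the azacytidine library and to FBN1-204 (100%) in the combined library. No FBN1 transcript had a larger share in both pairs. What both pairs showed was the level: gene reads were 50, 65, 12 and 5, a log2 ratio of -1.69 and -3.07. Mesenchymal markers summed to 88.7, 101, 18.2 and 6.19 CPM, and DCN and TWIST1 among them had no read in any library and COL3A1 and LUM none in either azacytidine library. Their part in the FBN1 level was not tested.

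**Figure D3:**
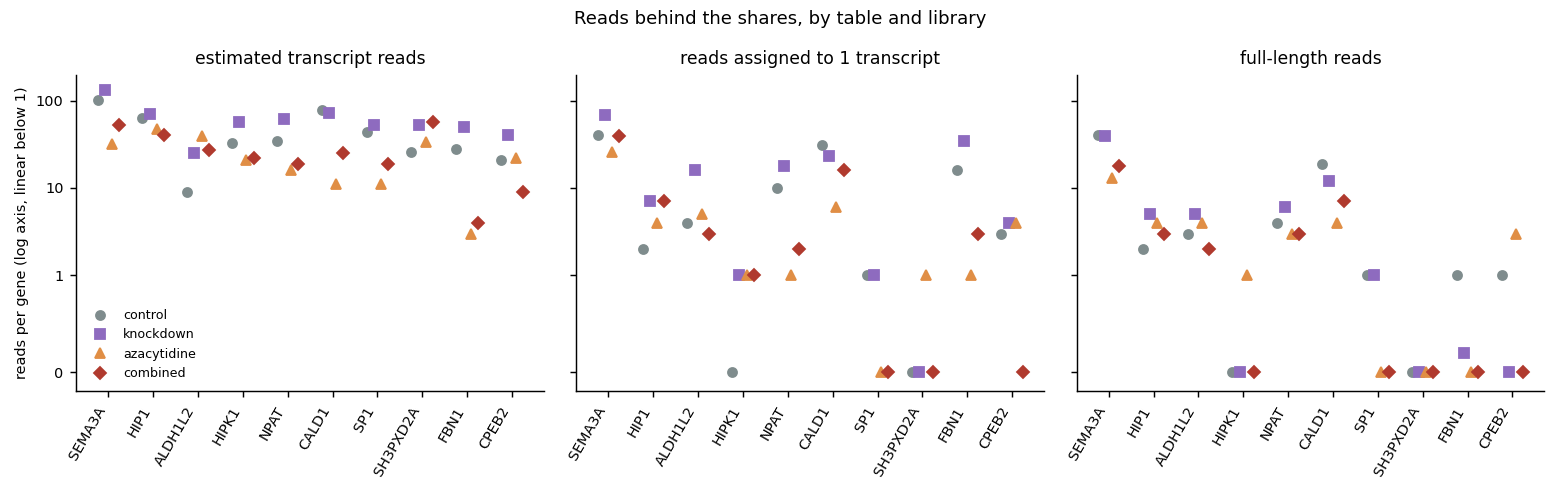
Reads per gene (log axis, linear below 1) in the estimated, unique and full-length tables for the 10 genes; each symbol is 1 library. SEMA3A, CALD1 and FBN1 have 16 or more unique reads in the control library, while HIPK1, SP1 and SH3PXD2A have at most 1 in any library.

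Across the 10 genes, 42 transcripts had reads and 24 had enough to be compared. Of these 24, 22 moved by 10 points in both azacytidine pairs, 9 to a larger and 13 to a smaller share, whereas 11.7% of all 15531 transcripts compared did so. The genes were chosen on these values, so nothing is read from this count or from those of starts and ends below. Just inside the limit of 10 points lay HIPK1-208 (-10.2 and -42.5 points), and just outside it CALD1-206 (-8.57 and -10.2 points). Of their 20 start groups compared, 16 in 7 genes moved by 10 points, 7 to a larger and 9 to a smaller share, and 10.5% of all 9082 start groups did so. NPAT and SH3PXD2A had 1 start group each. Of their 14 end groups compared, 8 in 5 genes moved by 10 points, 3 to a larger and 5 to a smaller share, and 8.85% of all 9740 end groups did so.

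The tables differ in how far they carry these switches. By unique reads, 8 of the 19 leading transcripts moved by 10 points the same way, in SEMA3A, HIP1, ALDH1L2, CALD1 and FBN1, and 8 had a library with no unique read of the gene. By full-length reads 8 moved likewise, in SEMA3A, HIP1, ALDH1L2, NPAT and CALD1, and 9 had a library with no full-length read. Unique reads per library were 2 to 7 in HIP1, 3 to 16 in ALDH1L2, and 1 and 3 with azacytidine in FBN1. Full-length reads per library were 2 to 6 in HIP1, ALDH1L2 and NPAT. A move of 10 points can be a single read there. Both kinds are also part of the reads that chose the genes, so they are not separate support. Over the 4 libraries, unique reads were 64.7% of the transcript reads in FBN1, 55.0% in SEMA3A, 40.9% in CALD1, 28.0% in ALDH1L2, 23.5% in NPAT, 12.0% in CPEB2, 8.93% in HIP1, 2.26% in HIPK1 and 1.57% in SP1.

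The knockdown comparisons use the same 4 libraries but were not used to choose the genes. Since these libraries also gave the shares that chose the genes, no excess over the background is read from the counts below. The rule here asked for 10 points in the same direction and an adjusted p under 0.05 in each pair (Fisher's exact test on rounded reads, Benjamini-Hochberg over all transcripts). Of the 24 transcripts compared, 2 passed it, both of SH3PXD2A, against a background of 0.702% of all transcripts. They are the only SH3PXD2A transcripts with reads, so they mirror each other and are 1 result. SH3PXD2A-202, without the 84-base exon, rose from 50% to 100% with the knockdown alone (adjusted p = 3.75e-06, Fisher's exact test) and from 0% to 27.2% beside azacytidine (adjusted p = 0.021, Fisher's exact test), and SH3PXD2A-203 fell by as much. The estimated share of the form with this exon was thus lower with the knockdown and higher with azacytidine. Only 1 of these reads was unique, so they cannot show whether the exon was present, and Fisher's test took divided reads as observed ones. With no minimum on reads, the adjusted p beside azacytidine was 0.107 in Fisher's exact test and the call was lost. In the pair without azacytidine, 8 of the 24 transcripts had an adjusted p under 0.05 in Fisher's exact test, against 7.16% of all transcripts, and in the pair with it 2 did, against 4.49%. The 8 were of HIPK1 and NPAT, and of HIP1, SH3PXD2A and CPEB2 with 2 transcripts each. Transcripts of a gene divide the same reads, so the 8 are not separate results. Those without azacytidine included HIP1-201 (adjusted p = 0.00802 in Fisher's exact test), HIPK1-208 (0.0163), NPAT-201 (0.0276) and CPEB2-209 (0.0065), each with an adjusted p of 0.207 or above in the other pair. Among start groups 0 of 20 passed, against 0.484% of all, with 2 at an unadjusted p under 0.05 in both pairs by Fisher's exact test, against 2.08% of all. Among end groups 0 of 14 passed, against 0.205% of all, with 0 at an unadjusted p under 0.05 in both pairs, against 1.19% of all.

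**Figure D4:**
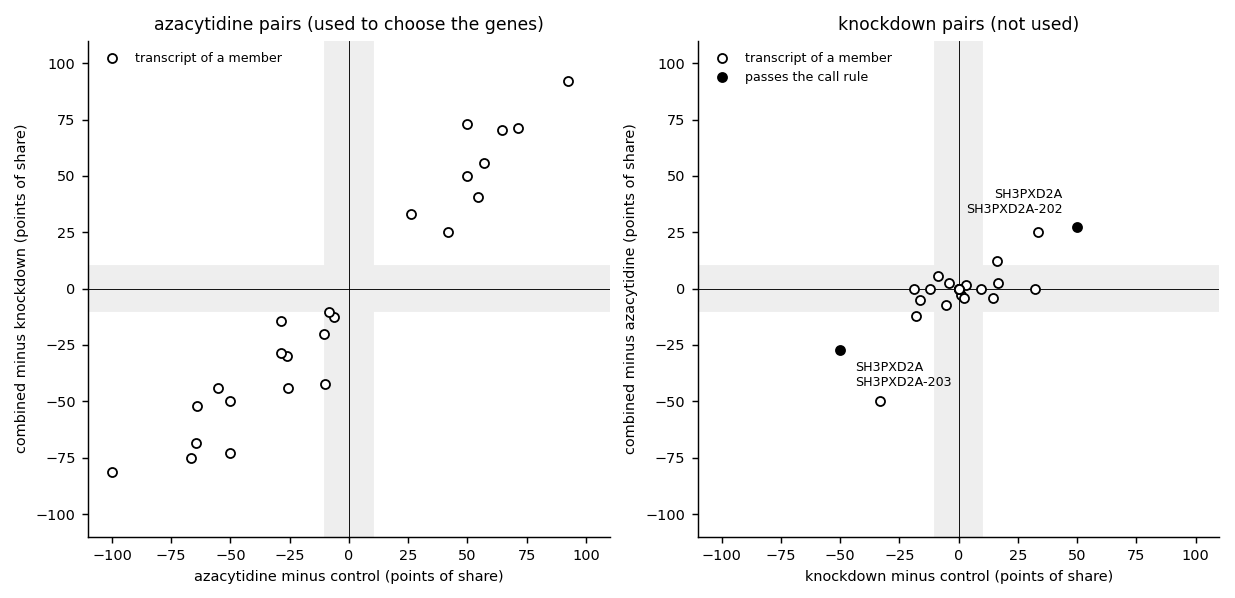
Change of share in percentage points of the 24 transcripts compared, in the pair without the other treatment (horizontal axis) and beside it (vertical axis); grey bands mark changes under 10 points. Left, azacytidine pairs, which chose the genes and carry no test; right, knockdown pairs, where filled points pass the rule, those of the SH3PXD2A transcripts alone.

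The levels of the genes went either way. With azacytidine the log2 ratio was below -0.5 in both pairs for SEMA3A, HIPK1, NPAT, CALD1, SP1 and FBN1, and above 0 in both for ALDH1L2 and SH3PXD2A (0.83 and 0.26). The median of all genes tested was 0.05 and -0.09. With the knockdown 0 of 10 levels passed the rule (adjusted p under 0.05 and a log2 ratio of 1 in both pairs, exact binomial test), against 0.97% of all genes, and 1 had an unadjusted p under 0.05 in both, against 7.37% of all genes. The count is near that share. That gene was SH3PXD2A, with log2 ratios of 1.41 and 0.83, named after its values were seen. Additive models called none of the 10, with a lowest adjusted p of 0.402 in edgeR and of 1.00 in DESeq2. The scaling matters for these ratios: for knockdown against control, the median over all genes was 0.18 with TMM factors and -0.04 with total counts, and the calls over all genes split into 51 higher and 28 lower with the former and 27 higher and 55 lower with the latter.

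Relatives of the 10 genes were taken from a list of 78 genes by family or pathway. Of the 49 with enough reads, 7 passed the level rule with azacytidine in the exact binomial test, against 9.8% of all genes, and 0 with the knockdown, where 2 had an unadjusted p under 0.05 in both pairs, against 7.37% of all genes. SHMT2, a mitochondrial enzyme of the folate pathway that ALDH1L2 belongs to, rose from 23 and 21 to 65 and 53 reads. PLXNA4, a plexin co-receptor for semaphorin 3A, fell from 57 and 112 to 17 and 9 reads. FBN2, a second fibrillin gene, fell from 80 and 148 to 5 and 9, and LTBP1, a latent TGF-beta binding protein of the same superfamily, from 65 and 78 to 8 and 2. CNN2, a calponin that like caldesmon binds actin, fell from 48 and 30 to 9 and 4. ADAM12, a metalloprotease that binds TKS5, fell from 49 and 63 to 12 and 3, and SP8, an SP-family factor, from 67 and 63 to 2 and 2. The median log2 ratio of the list was -0.03 and -0.42. In 106 transcripts of 42 relatives, 2 passed the share rule with azacytidine, against 1.13% of all transcripts, so their share is near the background. With the knockdown 0 passed, and 2 had an unadjusted p under 0.05 in both pairs by Fisher's exact test, against 2.41% of all. Those that passed with azacytidine were ENST00000472651.6 of CLTC, the clathrin heavy chain, and ENST00000528398.5 of PICALM, a clathrin assembly protein. The CLTC transcript fell from 16.6% and 17.7% to 4.29% and close to 0% of the reads, and the PICALM transcript from 13% and 17.7% to 2.18% and 2.29%.

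The sequence around the starts was not part of the choice. RefSeq windows existed for 8 of the 10 genes (not for SEMA3A and ALDH1L2), and 12 windows in 7 genes lay within 250 bases of a start with reads. In 4 genes there were windows both at a start whose estimated share was larger with azacytidine and at one whose share was smaller. The CpG ratio of the start that gained share was above that of each start that lost it in HIPK1, SP1 and CALD1 (0.443 against 0.341). It was below in HIP1. SP1 had no unique read with azacytidine and HIPK1 had 3 over all libraries, so which of their starts gained or lost share rests on divided reads. CPEB2 had a window at the start with the larger share only, with 51 CpG dinucleotides, a ratio of 1.20 and 4 GC boxes. Its other start, 193 bases downstream, was not shown to be another promoter. None of its 9 reads in the combined library was unique, so the larger share there rests on divided reads. NPAT (1.01) and SH3PXD2A (0.812), which have 1 start group each, also lay above the median of all windows, 0.579. The windows of starts that took a larger estimated share thus ranged from 0.443 to 1.20, the latter that of CPEB2. Those of starts with a smaller estimated share ranged from 0.168 to 0.974, and the ranges overlap.

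**Figure D5:**
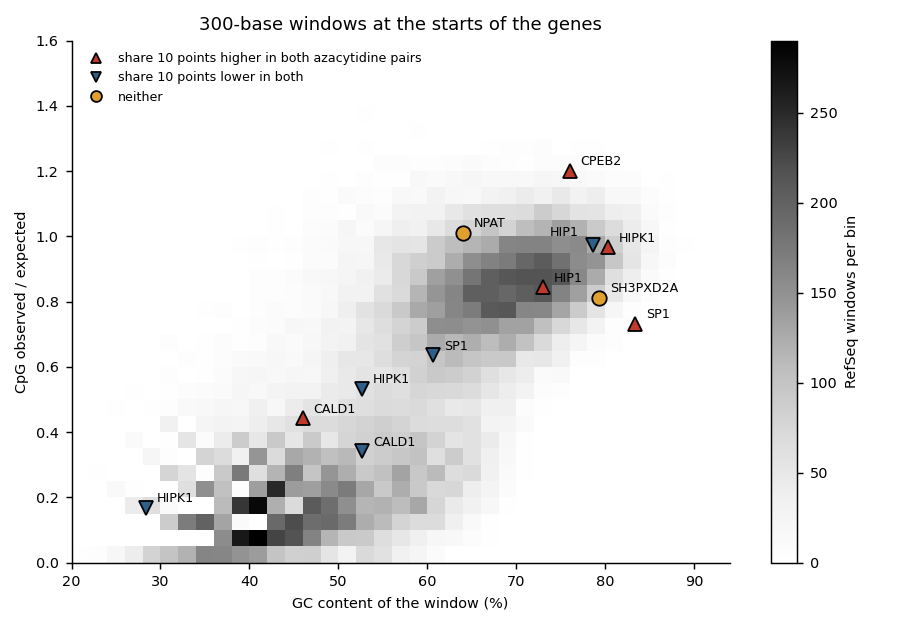
GC content (%, horizontal axis) and observed to expected CpG (vertical axis) of the 12 windows of 300 bases at starts of the genes, over a grey density of 35116 RefSeq windows. Triangles pointing up mark starts with a share at least 10 points higher in both azacytidine pairs, triangles pointing down those at least 10 points lower, and circles the others.

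The transcript of another gene with the most similar shares over the 4 libraries was found for each leading transcript by Euclidean distance, in points of share. For SP1-201 it was ENST00000424848.3 of CDK6, at a distance of 0, with 100%, 100%, 50% and 50%. With azacytidine SP1 had 11 and 19 transcript reads, none of them unique, and CDK6 had 8 and 10. The SP1 shares of 50% are divided reads, so this distance does not show a shared switch. For SP1-202 it was ENST00000376300.7 of CCDC93, at a distance of 4.13, and for BambuTx5044 of HIP1 it was ENST00000319432.9, also of CCDC93, at 11.6. ENST00000677446.1 of NONO was the nearest to HIPK1-201, at 1.01, and ENST00000611379.1 of TRIM46 to BambuTx5057 of SEMA3A, at 7.26 with shares of 11.9%, 0%, 29.5% and 33.2%. FBN1-201 and ALDH1L2-201 had the most distant neighbours, at 37.1 and 35.8. These distances are over 4 libraries that also share depth and composition, and are a description.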

How the data were processed

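Iso-Seq libraries of 4 groups, 1 per group, were grouped by their treatment label. Per the file headers, alignment was by minimap2 against hg38, a build also named in the submitters' processing notes, and the transcript annotation was extended by Bambu. Versions and settings were not given in the sources used here. The authors deposited estimated counts per gene and per transcript, the same for full-length reads alone, and whole counts of reads that fit a single transcript. Every deposited gene count and unique count was even (0 odd values), so all counts were divided by 2. Full-length and estimated values stay fractional and were rounded for tests only.

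A share is the reads of a transcript, start group or end group (ends within 100 bases joined) over the transcript reads of the gene. Features needed 10 reads in total and a mean of 20 transcript reads for the gene. Shares were compared by two-sided Fisher's exact tests (SciPy 1.17.1) and levels by two-sided exact binomial tests with TMM factors from edgeR 4.0.16 and a pseudocount of 0.5, both with Benjamini-Hochberg adjustment over all features. A call needed an adjusted p under 0.05 and 10 points, or a log2 ratio of 1, in the same direction in both pairs. Fisher's test treats divided reads as observed reads. Additive models were fitted in edgeR and DESeq2 1.42.0. Precision is set by the 9 to 132 transcript reads of most genes and libraries, and 3 to 4 in FBN1 with azacytidine.

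The genes, their relatives and the marker lists were chosen with earlier results of these data known. Named were the 10 genes, of each the transcript that ranked highest, in each direction, by the smaller of its changes in the azacytidine pairs, every other transcript with at least 10% of the reads in a library where it bears on the result, relatives that passed a rule, and the nearest transcript by shares. Coding lengths and exon sequences come from GENCODE 29, and start windows from RefSeq (GRCh38.p14, the assembly of hg38). Of the 10 genes, 8 had a window, and 7 had a window within 250 bases of a start with reads. The deposited CPM table was not used.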

Additional observations from a re-analysis of the deposited data

Results flagged for a closer look

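The level of a gene moved in opposite directions in the pairs of a treatment in 6 cases, each with 1 library on each side, and none of these differences between pairs was tested. CPEB2 had a log2 ratio of 1.17 with azacytidine alone and of -1.59 with azacytidine beside the knockdown, a difference of -2.76. The same 4 values gave 0.77 with the knockdown alone and -1.99 beside azacytidine, again a difference of -2.76, and the combined library held 9 of the CPEB2 gene reads against 21, 40 and 38 in the others. FBN1 had 0.23 with the knockdown alone and -1.16 beside azacytidine, a difference of -1.39, from 12 and 5 gene reads in the latter pair. The azacytidine ratios of HIP1 were 0.24 and -0.20, and its knockdown ratios were 0.20 and -0.24, a difference of -0.44 in each case. ALDH1L2 had 0.39 and -0.17 with the knockdown, a difference of -0.56.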

How the results depend on the processing

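Of 50 alternatives to the counts of calls, 10 stayed within 1.5 times the main count and 40 did not. The number of genes among the 10 whose leading transcript moved was 5 with unique counts and 5 with full-length counts. Counts below are of all features, azacytidine first and knockdown second, for transcripts, start groups, end groups and unannotated exon loci in this order. With unique counts they were 11 and 4, 1 and 2, 3 and 0, and 0 and 1. With full-length counts they were 9 and 3, 5 and 2, 2 and 0, and, for loci with the knockdown, 1. These tables hold fewer reads, and the unique table allowed 6407 transcripts to be compared. With no minimum on reads they were 105 and 64, 55 and 28, 18 and 9, and 1 and 4. With counts as deposited, not halved, they were 745 and 460, 421 and 256, 234 and 121, and 14 and 17, and 1403 and 211 genes passed by level. Joining ends within 500 bases gave 27 start groups with the knockdown and 21 end groups with azacytidine. The additive edgeR model called 3 genes with the knockdown, and the additive DESeq2 model called 268 with azacytidine and 7 with the knockdown. The cause was not tested except where fewer features or reads were compared. The knockdown call of the SH3PXD2A transcripts was kept with counts as deposited and lost with no minimum on reads, and the tables of unique and full-length reads gave it no value. No paired analysis was possible because each group has 1 library and the groups share only the number 1. No library could be left out, since each is the only one of its group. Depth limits the shares most in FBN1, with 3 transcript reads in its shallowest library, in ALDH1L2 and CPEB2, with 9, and in SP1 and CALD1, with 11.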
